A study of Homo sapiens with 2 samples.

Results

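The proteins of the cytosolic ribosome were followed here at the level of their messenger RNAs. Members were the genes whose symbol names a large-subunit (RPL) or small-subunit (RPS) protein, with RPS4X, RPSA, RPLP0, RPLP1, RPLP2 and FAU added. Rows named as pseudogenes and the RPS6K kinases were left out. The rule took 86 of the 29452 gene rows, 52 for the large and 34 for the small subunit. Of these, 7 are paralogs that encode a relative of a core protein: RPL3L, RPL7L1, RPL22L1, RPL26L1, RPL36AL, RPL39L and RPS27L. The other members, 46 large and 33 small, are called core here. RPS10L, a row under the level filter used below, is counted among the small ones, though no coding length was matched to it.

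RNA was sequenced from MDA-MB-231, an established triple-negative human breast cancer cell line. There were 2 libraries: 1 from cells carrying a short hairpin RNA against CDK14 (CDK14-sh) and 1 from scramble control cells. The target encodes a cyclin-dependent kinase that works with cyclin Y. Whether the hairpin cells were a clone or a pool, the number of hairpins and the time of RNA collection are not stated in the material used. Since each group is a single library, differences could not be set against the spread between cultures, no p-value is printed, and higher and lower describe these libraries.

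A cytosolic ribosome is built from a small subunit, which reads the messenger RNA, and a large subunit, which joins amino acids and passes the new chain out through a tunnel. Cells make nearly all ribosomal proteins in matched amounts and degrade those that find no partner. Most of their messenger RNAs are short, abundant and stable and begin with a run of pyrimidines, the 5′ terminal oligopyrimidine (TOP) tract. Through this tract the kinase mTOR and the RNA-binding protein LARP1 control the translation of the whole family together, and MYC raises its transcription. The level of such a messenger RNA therefore need not follow how much protein is made from it.

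Reads assigned to genes numbered 15478156 in CDK14-sh against 17217564 in the control. CDK14 itself stood at 0.548 RPKM, reads scaled to the exon length of the gene and to the library's total, in CDK14-sh against 2.48 in the control, from 58 and 292 reads, a lower level in the library that carries the hairpin. The 8 genes listed as high in MDA-MB-231, vimentin and CD44 among them, lay between 19.0 and 581 RPKM with the hairpin and between 24.0 and 584 in the control. The 6 genes listed as low or absent in this line reached at most 5.46 RPKM with the hairpin and 5.33 in the control. The measured markers of leukocytes, endothelium and fibroblasts reached at most 1.99 RPKM in either library.

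Most ribosomal protein messenger RNAs made up a slightly larger part of the CDK14-sh library. The members together took 2.50% of the assigned reads in CDK14-sh (95% exact binomial interval 2.49% to 2.50%) and 2.11% in the scramble control (2.10% to 2.11%). Large-subunit members took 1.54% against 1.32%, and small-subunit members 0.955% against 0.786%. Intervals here and below are Clopper-Pearson intervals and cover counting error only, not the spread between cultures.

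Each gene's ratio is given as log2 of its RPKM in CDK14-sh over that in the scramble control, with 0.1 RPKM added to both, and folds are plain ratios of RPKM. A gene counts as past a fold on the log2 ratio, with its added 0.1, so a gene just at a threshold can differ from its plain fold. Ratios were read for rows that reached 1 RPKM in either library, which kept 14878 rows and 84 of the 86 members. The median log2 ratio was 0.27 over these 84 members and 0.04 over all 14878 rows. The ratio was above 0 for 79 of the 84, against 54.7% of all rows. The differences were small: 44 of the 84 were at least 1.2-fold higher in CDK14-sh, against 27.2% of all rows. The 3 members lower by as much compare with 22.3% of all rows. No member reached 2-fold in either direction, while 3.21% of all rows passed that fold upwards and 3.47% downwards. The 95% counting interval of the ratio lay wholly above 1 for 75 members, against 27.3% of all rows, and wholly below 1 for 3 members, against 22.6%.

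These figures depend on the scale between the libraries. In TPM, which rescales each library to a common sum, the median of all rows moved by -0.15 to -0.11, and the member median was 0.12. On that scale 65 of 84 members were above 0, against 38.3% of all rows, 17 were higher by at least 1.2-fold, against 15.7%, and 3 were lower by as much, against 34.4%. Of the members above 0 in RPKM, 14 were not above 0 in TPM, all of them under 0.15 in RPKM; they include RPL3, RPL5, RPL8, RPL10, RPL41, RPS3A, RPS4X and RPS7. The member median stood above the median of all rows on both scales.

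**Figure D1:**
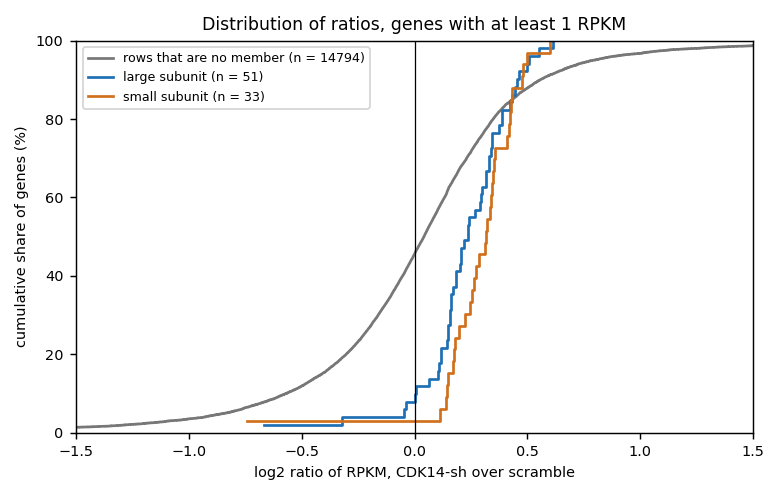
Cumulative share of genes (%) by log2 ratio of RPKM between CDK14-sh and scramble, for the 51 large-subunit members, the 33 small-subunit members and the other rows with at least 1 RPKM. Both member curves climb over a narrow range to the right of 0, while the curve of other rows spreads to both sides.

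The small subunit stood slightly further from 0 than the large one. The median log2 ratio was 0.32 over 33 small-subunit members, of which 21 were higher by 1.2-fold or more and 1 was lower by as much. It was 0.24 over 51 large-subunit members, of which 23 were higher by 1.2-fold or more and 2 were lower by as much. Of all rows, 27.2% were higher and 22.3% lower by as much, and 54.7% were above 0. All 32 core small-subunit members that passed the level filter were above 0 in RPKM, from 0.11 for RPS7 to 0.60 for RPS12, though some, among them RPS3A, RPS4X and RPS7, were just below 0 in TPM. The difference between the subunits was not tested. At a threshold of 1.5-fold only RPL15 and RPS12 were higher, against 9.11% of all rows, and only RPL37 and RPS27L were lower, against 9.55% of all rows.

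**Figure D2:**
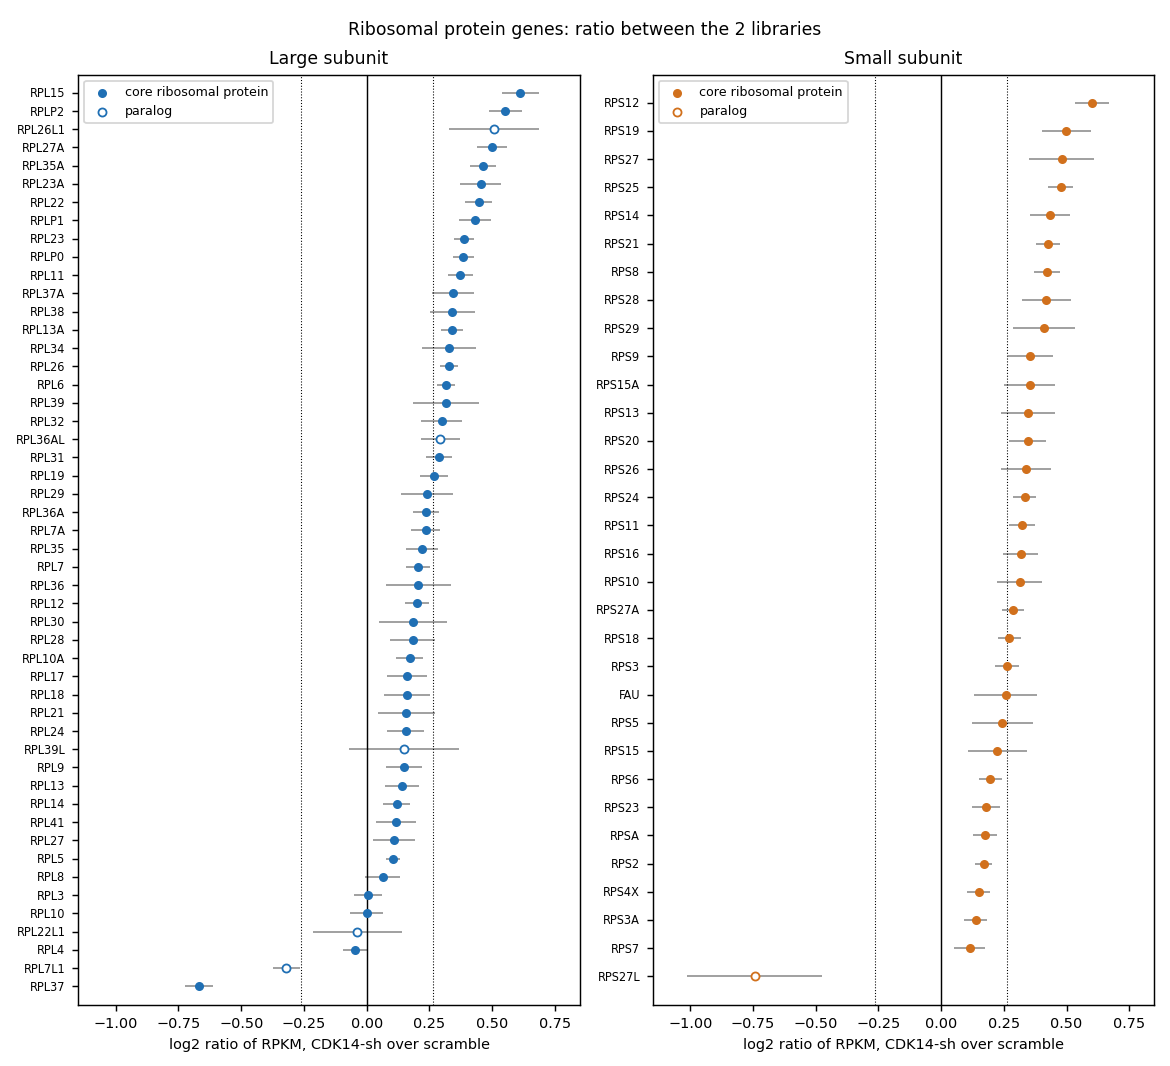
Log2 ratio of RPKM, CDK14-sh over scramble, for members that reached 1 RPKM in either library, large subunit on the left and small subunit on the right. Points are single ratios, filled for core members and open for paralogs, grey bars are 95% counting intervals, and dotted lines mark 1.2-fold; RPL37, RPL7L1 and RPS27L are the 3 points left of the lower dotted line.

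Absolute levels differed widely within the family. In the scramble control the highest large-subunit levels were 415 RPKM for RPL5, 260 for RPL26 and 212 for RPL10A, and the highest small-subunit levels were 388 for RPS21, 333 for RPS2 and 243 for RPS12. The same genes stood at 446, 327, 239, 521, 375 and 368 RPKM in CDK14-sh, in that order. RPKM divides by the summed length of all exons annotated to a row, so that length enters the order of the levels. RPS29 had 1004 scramble reads over 9783 bases, which gave 5.96 RPKM, and RPS27 had 873 reads over 946 bases, which gave 53.6 RPKM. The coding parts of these genes are 168 and 252 bases. The ratio between the libraries does not involve this length.

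**Figure D3:**
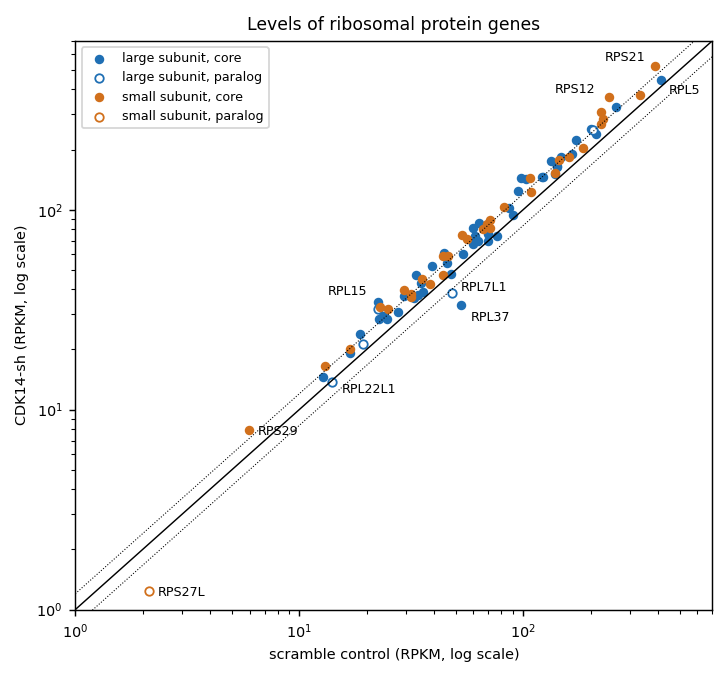
Level of each member that reached 1 RPKM in either library, scramble control on the x axis and CDK14-sh on the y axis, in RPKM on log scales. The solid line marks equal levels and dotted lines 1.2-fold; most points lie between the solid and the upper dotted line or just above it, and RPL37, RPL7L1 and RPS27L lie under the lower one.

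The highest ratio of the large subunit was that of RPL15, which encodes a protein of the large-subunit core. RPL15 stood at 34.5 RPKM in CDK14-sh against 22.5 in the control, from 3487 and 2534 reads, a 1.53-fold higher level (1.45 to 1.61). Its row shares exon positions with NKIRAS1 on the opposite strand, and the sources name no strand option for the counting. RPL27A stood at 46.9 against 33.2 RPKM, 1.41-fold higher. RPL35A, mutated in some patients with Diamond-Blackfan anaemia, stood at 142 against 103 RPKM, 1.38-fold higher. RPL22 and RPL23A of the exit tunnel and RPLP2 of the stalk complete the 6 highest core members.

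The GTPase stalk is the flexible arm of the large subunit that recruits elongation factors. RPLP0 forms its base and the acidic proteins RPLP1 and RPLP2 its tips. RPLP2 stood at 144 against 98.0 RPKM, 1.47-fold higher (1.40 to 1.54). RPLP1 stood at 85.3 against 63.2 RPKM, 1.35-fold higher, and RPLP0 at 175 against 134 RPKM, 1.31-fold higher. RPL12, which binds ribosomal RNA at the stalk base, stood at 190 against 166 RPKM, 1.15-fold higher. At least 1.2-fold higher were 3 of the 4 stalk genes, against 27.2% of all rows, and their median log2 ratio was 0.41.

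RPL5 and RPL11 bind the small ribosomal RNA of the large subunit and, when free, the ubiquitin ligase MDM2. RPL11 stood at 223 against 172 RPKM, 1.30-fold higher (1.25 to 1.34). RPL5, the member with the most reads, stood at 446 against 415 RPKM from 19941 and 20638 reads, 1.07-fold higher (1.05 to 1.10). These partners of 1 complex therefore stood at different ratios, with counting intervals that did not overlap.

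RPL3, RPL8 and RPL10 reach towards the site of peptide bond formation, and none differed beyond its counting interval. RPL3 stood at 69.9 against 69.7 RPKM, with an interval of the ratio from 0.967 to 1.04. RPL10, which joins the large subunit late in its maturation, stood at 47.8 RPKM in both libraries, with an interval from 0.956 to 1.05. RPL8 stood at 94.5 against 90.4 RPKM, with an interval from 0.996 to 1.10. All 3 were below 0 in TPM, with log2 ratios of -0.15, -0.15 and -0.09 for RPL3, RPL10 and RPL8.

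Of 9 proteins that line the exit tunnel or ring its mouth, 6 were at least 1.2-fold higher, against 27.2% of all rows, with a median log2 ratio of 0.29. RPL23A, a docking site for the signal recognition particle, stood at 60.6 against 44.2 RPKM, 1.37-fold higher. RPL22 stood at 81.1 against 59.5 RPKM, 1.36-fold higher. RPL26 stood at 327 against 260 RPKM, RPL39 at 29.6 against 23.7, RPL31 at 74.3 against 60.8 and RPL19 at 146 against 121, with RPL19 lowest and RPL26 highest of these at 1.26-fold. RPL35 at 1.17-fold and RPL17 at 1.12-fold stayed under 1.2-fold. RPL4, which sends a long loop into the tunnel, stood at 74.0 against 76.4 RPKM, and the interval of its ratio, 0.937 to 1.002, spanned 1.

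RPL37, a zinc-binding protein of the large subunit, was the core member with the lowest ratio. It stood at 33.3 RPKM in CDK14-sh against 53.0 in the control, from 4205 and 7444 reads, a 1.59-fold lower level (1.53 to 1.65). It was the only core member at least 1.2-fold lower, both in RPKM and in TPM, and its row shares no exon position with another row. RPL37A, another zinc-binding protein of the large subunit with a similar name, stood at 23.8 against 18.7 RPKM, 1.27-fold higher. The core large-subunit members not named with their levels were above 0 in RPKM, though some, among them RPL27 and RPL41, were not in TPM.

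In the small subunit RPS12 stood highest. RPS12 had 368 RPKM in CDK14-sh against 243 in the control, from 4371 and 3204 reads, 1.52-fold higher (1.45 to 1.59), and its row shares no exon position with another row. RPS19, the gene most often mutated in Diamond-Blackfan anaemia, stood at 32.5 against 22.9 RPKM, 1.42-fold higher. RPS25, which some viral and cellular messenger RNAs need to start translation internally, stood at 309 against 222 RPKM, 1.39-fold higher. RPS21 stood at 521 against 388 RPKM, 1.34-fold higher. RPS12 and RPS21 are also among the 3 highest levels of the subunit given above.

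On the platform of the small subunit and around the point where the messenger RNA leaves it, 4 of 6 genes were at least 1.2-fold higher, against 27.2% of all rows, with a median log2 ratio of 0.38. RPS27 stood at 74.8 against 53.6 RPKM, 1.40-fold higher, and RPS14, lost in the 5q- syndrome, at 39.5 against 29.2 RPKM, 1.35-fold higher. RPS28 stood at 58.5 against 43.7 RPKM and RPS26 at 58.6 against 46.4, 1.34-fold and 1.26-fold higher. RPSA, also known as a laminin receptor, and RPS3A were nearer to equal, at 122 against 108 and 203 against 184 RPKM.

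Along the decoding site and the channel by which messenger RNA enters, 2 of 6 genes were at least 1.2-fold higher, a share near the 27.2% of all rows, with a median log2 ratio of 0.24. RPS9, with 2164 against 1881 reads, was 1.28-fold higher, and RPS3 stood at 79.8 against 66.5 RPKM, just past 1.2-fold. RPS2 stood at 375 against 333 RPKM, RPS23 at 80.6 against 71.3 and RPS15 at 36.8 against 31.5, from 1.13-fold to 1.17-fold higher. FAU, whose product is a ubiquitin-like protein fused to the small-subunit protein eS30, stood at 37.8 against 31.6 RPKM, just under 1.2-fold.

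The lowest core ratios of the small subunit were still above 0 in RPKM, though those of RPS7, RPS3A and RPS4X were not in TPM. RPS7, which also binds MDM2, stood at 47.3 against 43.7 RPKM, 1.08-fold higher. RPS4X, the X-linked copy of the gene, stood at 153 against 138 RPKM, 1.11-fold higher. RPS6, the small-subunit protein phosphorylated by the S6 kinases, stood at 183 against 160 RPKM, 1.15-fold higher. The genes fused to ubiquitin or a relative of it had ratios inside the range of the rest: RPS27A, which carries ubiquitin itself, had a log2 ratio of 0.29 and FAU 0.26.

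**Figure D4:**
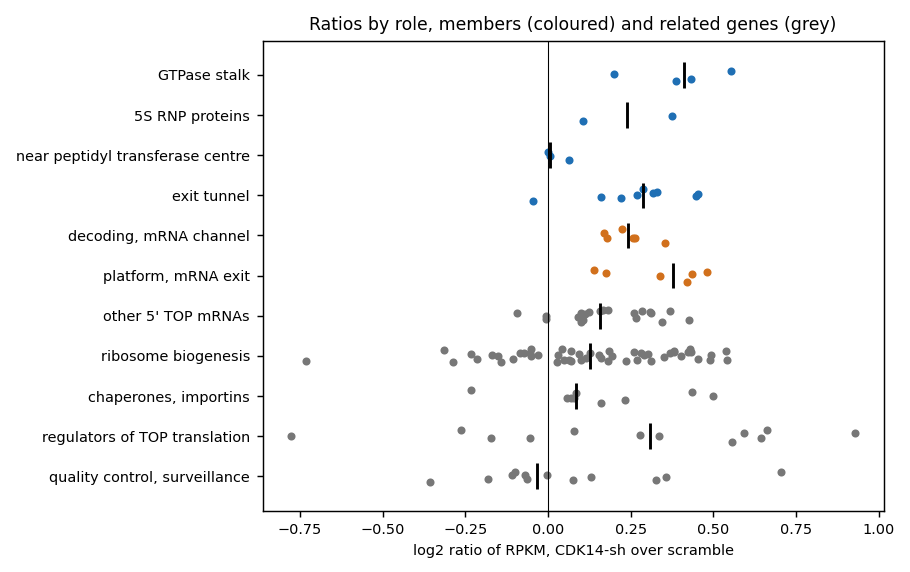
Log2 ratio of RPKM, CDK14-sh over scramble, by role, for members of the large subunit (blue) and small subunit (orange) and for 5 lists of related genes that are no members (grey). Each point is a gene that reached 1 RPKM in either library, placed with a small vertical offset, and black bars are medians; the 3 genes near the peptidyl transferase centre sit near 0 and the stalk genes near 0.4.

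Proteins shared with bacteria and archaea and proteins found in fewer lineages gave close medians, beside 0.04 and 27.2% at least 1.2-fold higher over all rows. In the large subunit 7 of 18 shared members were at least 1.2-fold higher, with a median log2 ratio of 0.20, and 14 of 28 other core members, with a median of 0.25. In the small subunit 10 of 15 shared members were, with a median of 0.32, and 11 of 17 others, with a median of 0.33.

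The paralogs were more spread than the core genes. RPS27L, a relative of RPS27, stood at 1.24 RPKM in CDK14-sh against 2.14 in the control, from 175 and 336 reads, 1.73-fold lower (1.43 to 2.08), while RPS27 was 1.40-fold higher. RPL7L1, a factor of large-subunit assembly, stood at 38.5 against 48.1 RPKM, 1.25-fold lower, with an interval that ended at 1.30, while RPL7 stood at 163 against 141 RPKM, 1.15-fold higher. In both pairs the paralog and the parent lay on opposite sides of 1 and their counting intervals did not meet.

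RPL22L1, which can replace RPL22 in the ribosome, stood at 13.7 against 14.1 RPKM, with an interval of the ratio from 0.861 to 1.10, while RPL22 was 1.36-fold higher. RPL26L1, with 577 against 451 reads, was 1.42-fold higher (1.26 to 1.61), beside 1.26-fold for RPL26. RPL36AL stood at 251 against 205 RPKM, 1.23-fold higher, beside 102 against 86.3 RPKM and 1.18-fold for RPL36A. RPL39L stood at 21.3 against 19.2 RPKM with an interval from 0.954 to 1.29. RPL3L, a muscle form of RPL3, had 2 reads against 0 in the control, and RPS10L 0 against 5, so both lay under the level filter and no fold is given. Over the 6 paralogs that passed the filter the median log2 ratio was 0.06, with 2 higher and 2 lower by at least 1.2-fold. Over all rows these values are 0.04, 27.2% and 22.3%, so the paralogs lay near the background.

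The first bases of the messenger RNAs show how the TOP tract was placed among these genes. Sequences around the annotated start of each gene came from RefSeq (GRCh38.p14), and a TOP start was counted where the first base was C and at least the next 4 were C or T on the gene's strand. Of 68 members with an entry, 48 had such a start at 1 or more annotated starts (70.6%), against 5.14% of 27305 symbols in the table and 7.51% of the 8722 rows that passed the level filter and had an entry. Each line gives 30 bases, 10 before the start and 20 from it, with the C and its pyrimidine run in capitals where the start is of the TOP kind. The first 5 are highly expressed or strongly differing core genes with a TOP start, followed by RPL10, which has the tract and a ratio near 1, and RPL3 and RPL4, which lack it at the annotated start.
RPS12 (chr6:132814559-132814588, plus strand): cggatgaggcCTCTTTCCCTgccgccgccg
RPLP2 (chr11:809957-809986, plus strand): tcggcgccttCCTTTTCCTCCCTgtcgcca
RPL27A (chr11:8682782-8682811, plus strand): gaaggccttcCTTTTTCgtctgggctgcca
RPS19 (chr19:41860245-41860274, plus strand): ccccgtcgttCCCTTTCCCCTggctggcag
RPS21 (chr20:62387093-62387122, plus strand): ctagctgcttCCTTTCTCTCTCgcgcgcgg
RPL10 (chrX:154398367-154398396, plus strand): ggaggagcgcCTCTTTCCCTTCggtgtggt
RPL3 (chr22:39319604-39319633, minus strand): gccgaccggcctctaccggcgggatttgat
RPL4 (chr15:66504836-66504865, minus strand): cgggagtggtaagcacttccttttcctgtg

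The next lines set parents beside paralogs. RPL22 and RPL22L1 both begin with the tract, whereas RPL26L1, RPL36AL, RPS27L and RPL7L1 do not at the starts listed.
RPL22 (chr1:6199576-6199605, minus strand): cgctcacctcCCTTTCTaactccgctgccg
RPL22L1 (chr3:170870176-170870205, minus strand): ccgtagcttcCTCTCTgctctcgcggccga
RPL26 (chr17:8383174-8383203, minus strand): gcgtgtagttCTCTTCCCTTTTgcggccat
RPL26L1 (chr5:172958719-172958748, plus strand): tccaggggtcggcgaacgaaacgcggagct
RPL36A (chrX:101391001-101391030, plus strand): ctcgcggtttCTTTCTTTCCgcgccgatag
RPL36AL (chr14:49620607-49620636, minus strand): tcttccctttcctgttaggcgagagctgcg
RPS27 (chr1:153990752-153990781, plus strand): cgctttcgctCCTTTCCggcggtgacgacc
RPS27L (chr15:63157458-63157487, minus strand): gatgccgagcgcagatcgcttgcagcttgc
RPL7L1 (chr6:42879606-42879635, plus strand): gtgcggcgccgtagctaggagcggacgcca

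Core members with and without the TOP start overlapped in their ratios. The 47 core members with it had a median log2 ratio of 0.31, from 0.00 for RPL10 to 0.60 for RPS12, and 28 of them were at least 1.2-fold higher, against 27.2% of all rows. The 16 without it had a median of 0.20, from -0.05 for RPL4 to 0.61 for RPL15, and 7 were at least 1.2-fold higher. Of the 5 paralogs with an entry, RPL22L1 alone had the tract. An annotated start can miss the one a cell uses: the window of RPL4 holds a pyrimidine run a few bases past its annotated start. A match is a description of these letters and not a measured tract.

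Shorter coding regions went with higher ratios, inside the family and outside it. Over the 78 core members that passed the filter, Spearman's rho between the log2 ratio and the coding length was -0.41, given as a description across genes that share both libraries. The median was 0.34 for 26 core members with up to 400 coding bases, 0.28 for 30 with more than 400 and up to 600 and 0.17 for 22 with more than 600. Genes that are no members gave medians of 0.24, 0.13 and 0.01 in the same ranges, over 518, 816 and 8980 genes. The core medians lay above those of other genes in each range. What part of the family's ratios goes with coding length was not tested. RPL37, with 291 coding bases, and RPL15, with 612, were the core members furthest from the median of their range.

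**Figure D5:**
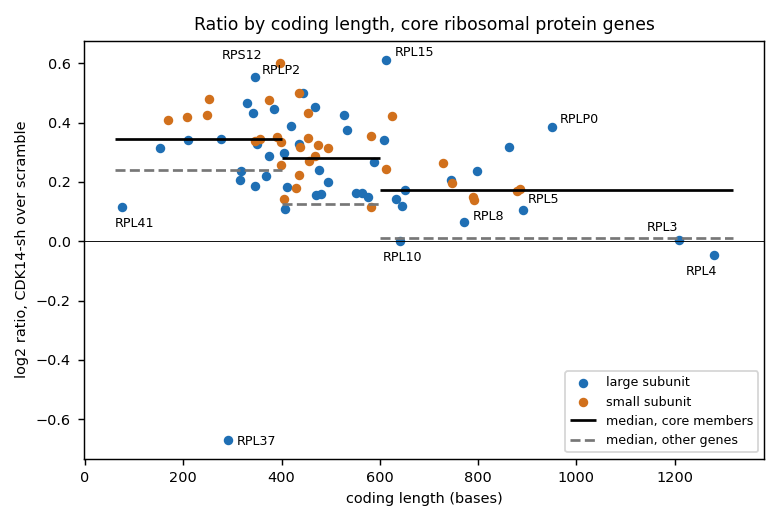
Log2 ratio of RPKM, CDK14-sh over scramble, against coding length in bases for core members of the large subunit (blue) and small subunit (orange). Black lines are medians of core members and dashed grey lines medians of other genes in the same ranges of coding length (up to 400, over 400 to 600, and over 600); both step down with length, with RPL37 far below the rest.

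Level and row length showed no such order. Spearman's rho over the same 78 core members was -0.09 with the RPKM in the scramble control and -0.08 with the summed exon length of the row. Core members at 20 to 100 RPKM in the higher library had a median log2 ratio of 0.28 over 44 genes, and those at 100 RPKM or more 0.28 over 30. Genes that are no members had medians of 0.03 over 2150 genes and 0.08 over 382 genes at those levels.

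Reads of a ribosomal protein gene can be split with its processed pseudogenes, near-identical copies elsewhere in the genome, and the sources name no multi-mapping option for the counting. The table held 359 rows named as pseudogenes of 66 members, and 303 had a read in either library. Together they held 13280 reads against 12316 in the control, 3.44% and 3.40% of the members' own reads. Their pooled level in CDK14-sh was higher, with an interval of the ratio from 1.17 to 1.23. RPL6P27 alone, the copy of RPL6 with the most reads, had 4371 and 3628, 1.34-fold higher (1.28 to 1.40), beside 1.25-fold for RPL6. Of 18 members whose pseudogenes held at least 100 scramble reads, 14 had pseudogenes with a fold above 1. Singly, 53 of 82 pseudogene rows that reached 1 RPKM in either library were above 0 (64.6%), against 54.7% of all rows. The counting intervals of 64 of the 82 spanned 1.

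Host genes of small nucleolar RNAs are common in this family, and 50 of the 86 rows share an exon position with another row, 11 of them only with small nucleolar RNA rows. The 30 core members that share none had a median log2 ratio of 0.24, and the 48 that do had 0.29. Of the 35 members of either kind that share none and passed the filter, 15 were higher by at least 1.2-fold and 3 lower, the latter being RPL37, RPL7L1 and RPS27L. Over all rows, whether they share a position or not, 27.2% were higher and 22.3% lower by as much.

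The 5 members below 0 in RPKM each carry at least 1 of 4 searched words in their 3′ untranslated region (UTR). No single word is in all 5, and of the 19 members not above 0 in TPM, 11 carry none. The search used the 7-base word GTCATGC with its neighbour shifted by 1 base, TCATGCA, and likewise the word ATCCATA with its shifted neighbour TCCATAA. All 4 came from earlier work on these data that selected them on the ratios analysed here, so finding them in lower genes is a description that supports nothing. They were searched on the transcript strand of GENCODE v29 (GRCh38). In the longest annotated 3′ UTR of each gene, 16 of 84 members carried at least 1 word (19.0%), against 25.1% of 10278 other genes, and all 5 members below 0 in RPKM were among the 16. UTR length moved with this: its median was 2690.5 bases in members with a word and 260 in those without, and 1362.5 in the other genes. The part of length was not tested. Of the 16 members, RPL9 and RPL15 carry their words only outside the positions counted for their rows. In the UTR of the principal transcript 8 of 84 members carried a word (9.52%), against 19.5% of 10278 other genes. The 8 were RPL4, RPL22L1, RPL37, RPL7L1 and RPS27L, which were below 0, and RPL13, RPL37A and RPS23, which were above 0. Of the 76 members without a word there, 0 were below 0 in RPKM and 13 were not above 0 in TPM. Among other genes, 3490 of the 8277 without a word there were below 0 in RPKM, and 1269 of the 2001 with one. Other genes with a word in the principal transcript had a median log2 ratio of -0.12 over 2001 genes, and those without 0.06 over 8277.

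The lines below print 29 bases around a word, in capitals, for the 5 members below 0 and for RPL15, the highest member. RPL15 carries its words only in a longer UTR that its principal transcript lacks. Its row ends at position 23923692, so these words lie outside the exons counted for its ratio.
RPL37 (chr5:40832471-40832499, minus strand): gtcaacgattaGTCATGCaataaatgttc
RPL4 (chr15:66499371-66499399, minus strand): aatttgattatTCCATAAaggtcaaatca
RPS27L (chr15:63153952-63153980, minus strand): ttatcataaatTCCATAAttctaattaat
RPL22L1 (chr3:170865383-170865411, minus strand): ggtttggcaaaATCCATActgcaggagat
RPL7L1 (chr6:42889671-42889699, plus strand): tttccactctgTCCATAAaatgggagcta
RPL15 (chr3:23923742-23923770, plus strand): ccaaattgtctTCCATAAaagttgaacca

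The places of these words differed. In RPL37 the word lies 16 bases after the stop codon, in RPL4 19 bases and in RPS27L 63 bases, whereas it lies 980 bases after it in RPL22L1, 2529 in the principal transcript of RPL7L1 and 2078 in the long transcript of RPL15. In RPL13, which was above 0 in RPKM and just below it in TPM, a word lies 32 bases after the stop codon. RPL4, RPL13 and RPL37, each with a word that close, stood at 0.969, 1.10 and 0.628 of the control level.

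Genes that work with the ribosome were set beside the members. Other messenger RNAs of the TOP class, those of translation factors and their partners, had a median log2 ratio of 0.16 over 21 genes, with 7 at least 1.2-fold higher and 0 lower, beside a median of 0.04 and shares of 27.2% and 22.3% over all rows. EEF2, the factor that moves the ribosome along, stood at 85.9 against 63.9 RPKM, 1.34-fold higher, and HNRNPA1 at 530 against 411 RPKM, 1.29-fold higher. NAP1L1, a histone chaperone, stood at 145 against 117 RPKM.

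Of 51 ribosome biogenesis factors, 18 were at least 1.2-fold higher, against 27.2% of all rows, and 3 lower, against 22.3%, with a median of 0.13. NOB1, the nuclease that makes the last cut of small-subunit RNA, stood at 8.38 against 14.0 RPKM, 1.67-fold lower (1.44 to 1.94). MDN1, the giant ATPase of large-subunit assembly, and RRP12 stood at 12.8 against 8.75 and 13.7 against 9.39 RPKM, both 1.46-fold higher. NOP10, a protein of the box H/ACA particles, stood at 23.3 against 16.6 RPKM, 1.41-fold higher. Chaperones and importins of ribosomal proteins had a median of 0.09 over 9 genes. At least 1.2-fold higher were 2 of them, against 27.2% of all rows, and 0 were lower by as much, against 22.3%. The 2 were BCCIP, 1.41-fold higher, and GRWD1, 1.36-fold higher. IPO9, the only gene of this list below 0, stood at 9.55 against 11.3 RPKM, 1.18-fold lower (1.11 to 1.25).

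The regulators of TOP translation spread most widely of the 5 lists. Over 12 genes the median was 0.31, with 7 at least 1.2-fold higher, against 27.2% of all rows, and 1 lower, against 22.3%. RPS6KB1, at 9.45 against 11.4 RPKM, lay at that lower threshold, just past it on its plain fold. EIF4EBP1 and EIF4EBP2 encode inhibitors of cap-dependent translation that mTOR switches off. The 2 genes stood at 27.4 against 14.3 and 19.4 against 12.2 RPKM, 1.91-fold and 1.59-fold higher. LARP1, which binds the TOP tract, stood at 37.4 against 23.9 RPKM, 1.57-fold higher. MTOR stood at 2.30 against 4.01 RPKM, 1.75-fold lower (1.55 to 1.97). These are levels of messenger RNA, and neither kinase activity nor translation was measured.

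Among 12 genes of ribosome quality control and surveillance the median was -0.03, with 3 at least 1.2-fold higher, a share near the 27.2% of all rows, and 1 lower, against 22.3%. MDM2, the ligase that free RPL5 and RPL11 hold back, stood at 7.08 against 4.31 RPKM, 1.64-fold higher (1.51 to 1.78). HUWE1, a ligase that clears unassembled ribosomal proteins, stood at 36.1 against 46.2 RPKM, 1.28-fold lower. UBE2O, another enzyme that does so, stood at 6.53 against 5.08 RPKM.

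Proteins of the mitochondrial ribosome, which are no members, were also mostly above 0: over 78 genes the median log2 ratio was 0.22, with 33 higher by at least 1.2-fold, against 27.2% of all rows, and 2 lower, against 22.3%. No list was tested against other genes.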

How the data were processed

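Per the file headers, the deposited table gives RPKM per library beside each gene row's summed exon length. Named in the submitters' processing notes are Subread 1.5.1, featureCounts and Bowtie 0.12.2, and as builds mm8 and GRCh38, with no role for any. No source used here states how strand and multi-mapped reads were treated. Within 0.01 read, 100% of nonzero products of RPKM and length were whole multiples of 1 step per library, so reads were recovered for the counting intervals. No count test was run, since each group held 1 library. Ratios were log2 with 0.1 RPKM added, which shrinks the change of low genes, over rows of at least 1 RPKM in the higher library.

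The members and lists were chosen with earlier results of these data known. Members named with levels were, in each subunit, the 6 highest and 6 lowest core ratios, the role lists, the paralogs with their parents and the 3 highest levels, and up to 4 genes of each related list. RPL6, RPL13, RPL37A, RPS6 and RPS6KB1, the ranges of level and coding length, the TOP search and the mitochondrial list were added after values were seen. Coding lengths and 3′ UTRs came from GENCODE v29 (85 members matched for coding length) and starts from RefSeq (68 matched). Of the rows, 27 have names that read as dates and were not named. A few genes of the rule and lists are counted but not reported singly here. The ratios, intervals and read recovery were tested on simulated data. Scripts ran in Python 3.11.15 with scipy 1.17.1, pandas 2.3.3, matplotlib 3.10.9 and numpy 2.4.6.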

Additional observations from a re-analysis of the deposited data

How the results depend on the processing

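Over 11 alternative settings the median of neither subunit changed sign, nor did any named member at least 1.2-fold apart, while 14 members closer to 0 changed sign in TPM. Of 431 values of named members 56 left their counting interval. In TPM 47 of the 51 named members did so, and 4 stayed inside it. In TPM the large and small medians were 0.083 and 0.17, with 9 and 8 members at least 1.2-fold higher. Among rows overlapping no other row, with fewer members tested, 7 large and 8 small ones were. At 1.5-fold, 1 of each subunit was higher, 1 large one lower, and 4 members in all passed. The small members lower numbered 2 with no level filter, when RPS10L (1 member past 2-fold) enters, 0 at 5 RPKM or more and 0 without paralogs; without paralogs 1 large member was lower. The share of reads in CDK14-sh and scramble was 3.01% and 2.46% without mitochondrial rows in the totals, 2.44% and 2.04% without paralogs and 2.58% and 2.18% with pseudogenes added. With mitochondrial rows left out, 51 members were at least 1.2-fold higher, and with all ratios centred on the median of all rows, 37. The median of all rows was 0.09 with mitochondrial rows left out. Shares of all rows past 1.2-fold were not taken on these scales. Read number limits RPS27L, RPL22L1, RPL26L1 and RPL39L most. No paired analysis was possible because CDK14-sh and scramble had 1 library each.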
